A study of Homo sapiens with 6 samples.

Results

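The genes described here are 44 genes of mitosis: the kinases and cyclins that start it, proteins of the kinetochore and the spindle checkpoint, condensin, and the factors that end it. They were picked by symbol for these roles, with the kinesin motors left out, when earlier results of these data were known. All 44 were found among the 60617 gene identifiers of the table, and all 44 were among the 18505 genes with enough counts to be tested. The RNA came from cultured A549 cells, an established line of human lung adenocarcinoma. Libraries from wild-type cells (n = 3) were set against libraries from A549 cells with a knockout of YTHDF1 (n = 3), a cytoplasmic protein that binds methylated adenosines in mRNA. The labels name the genotype as the difference between the groups, give no treatment or time point, and say nothing of clones, separate cultures or which part of YTHDF1 was edited. They call the 3 libraries of each group biological replicates. The p-values measure the spread between these 6 libraries, and whether that spread covers separate clones or cultures is not stated.

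As background, mitotic entry is driven by CDK1 bound to cyclin A or cyclin B, which CDC25 phosphatases switch on and which PLK1 and the Aurora kinases support. Condensin and topoisomerase II then compact and untangle the chromosomes, kinetochores built on centromeres bind the spindle, and the checkpoint holds anaphase back until every kinetochore is attached. Many of these genes are transcribed together late in the cell cycle, when the MuvB complex with MYBL2 and then FOXM1 acts through a promoter element called CHR (cell cycle genes homology region), often beside CCAAT boxes bound by NF-Y.

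Levels are given as CPM, counts scaled to a common library total, on libraries of 27238817 to 40675628 counts, in the order of the replicate numbers. YTHDF1 itself measured 98.0, 104 and 96.4 CPM in wild type and 48.6, 48.6 and 47.1 CPM in the knockout libraries, so its RNA was lower and still detected in each knockout library. The levels of the markers of the line differed widely. KRT8, an epithelial keratin, was at 1507 CPM or more in each library, and ALDH1A1, an aldehyde dehydrogenase, was at 5190 CPM or more. EPCAM, a surface marker of epithelia, was low, at 2.56 CPM or less. The 8 epithelial and A549 markers summed to 9598 to 10107 CPM in the wild-type and to 8756 to 9085 CPM in the knockout libraries. Within this list KRT8, KRT19, AKR1C1 and CDH1 rose, ALDH1A1 and AKR1B10 fell, and KRT18 and EPCAM did not pass the test. CDH1 (E-cadherin) had the largest rise, from 10.0 to 34.0 CPM (1.76 on the log2 scale, adjusted p = 3.24e-17), and AKR1B10, an aldo-keto reductase, went from 1005 to 482 CPM (fall of 1.06, adjusted p = 1.38e-19). The 8 markers of blood, endothelial and stromal cells summed to 40.2 to 46.2 and to 44.2 to 48.2 CPM. Of these, CD3E was at 0 in all 6 libraries and PTPRC was at 0.185 CPM or less, while the collagen gene COL1A1 gave most of the sum. The similar sums hid opposite changes: COL1A1 rose by 0.49 (adjusted p = 3.43e-07), CD14, a monocyte marker, fell by 1.69 from 11.1 to 3.45 CPM (adjusted p = 2.86e-12), and COL3A1 fell by 1.27 (adjusted p = 0.00561). The part of these changes in the results on the mitotic genes was not tested. Mitochondrially encoded mRNAs took 5.76% to 5.92% of the counts in the wild-type and 3.72% to 3.98% in the knockout libraries.

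Because promoter matches are described further below, a few promoters are shown first. They are the 160 bases before the RefSeq transcription start on GRCh38.p14, written 5′ to 3′ on the strand of the gene, with the letters of a CHR element (TTTGAA or TTCGAA, on either strand) or an NF-Y box (CCAAT, on either strand) in capitals. The first 6 were chosen because they hold a CHR element and belong to genes that fell in the knockout libraries, by different amounts. The last 3 belong to MYBL2, the gene with the largest fall, and to ECT2 and CDC25B, which did not pass the test.
CCNB2, chr15:59104986-59105145, plus strand: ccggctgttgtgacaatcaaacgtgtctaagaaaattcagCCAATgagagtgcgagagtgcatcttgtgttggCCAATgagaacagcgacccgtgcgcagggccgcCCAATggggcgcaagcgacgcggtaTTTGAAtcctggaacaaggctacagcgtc
PLK1, chr16:23678729-23678888, plus strand: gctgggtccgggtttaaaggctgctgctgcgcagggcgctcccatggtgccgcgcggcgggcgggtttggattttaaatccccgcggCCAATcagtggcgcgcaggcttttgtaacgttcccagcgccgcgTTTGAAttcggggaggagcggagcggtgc
CENPA, chr2:26785896-26786055, plus strand: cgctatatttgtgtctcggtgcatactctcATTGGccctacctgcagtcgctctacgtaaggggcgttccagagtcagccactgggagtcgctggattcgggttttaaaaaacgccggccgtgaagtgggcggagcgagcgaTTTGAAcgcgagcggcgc
CDCA8, chr1:37692356-37692515, plus strand: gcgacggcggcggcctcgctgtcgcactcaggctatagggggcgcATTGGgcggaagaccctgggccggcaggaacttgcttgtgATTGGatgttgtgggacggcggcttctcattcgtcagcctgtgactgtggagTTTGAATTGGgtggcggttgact
NCAPG, chr4:17810819-17810978, plus strand: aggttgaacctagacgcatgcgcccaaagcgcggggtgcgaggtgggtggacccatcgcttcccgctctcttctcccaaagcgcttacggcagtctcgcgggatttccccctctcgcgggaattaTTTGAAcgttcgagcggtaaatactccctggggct
TOP2A, chr17:40417897-40418056, minus strand: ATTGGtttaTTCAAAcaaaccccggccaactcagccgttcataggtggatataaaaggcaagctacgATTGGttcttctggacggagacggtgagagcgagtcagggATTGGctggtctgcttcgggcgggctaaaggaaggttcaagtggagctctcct
MYBL2, chr20:43666954-43667113, plus strand: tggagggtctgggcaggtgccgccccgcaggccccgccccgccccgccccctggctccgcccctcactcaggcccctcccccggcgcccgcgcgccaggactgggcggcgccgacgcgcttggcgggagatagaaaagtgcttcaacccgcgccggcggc
ECT2, chr3:172750566-172750725, plus strand: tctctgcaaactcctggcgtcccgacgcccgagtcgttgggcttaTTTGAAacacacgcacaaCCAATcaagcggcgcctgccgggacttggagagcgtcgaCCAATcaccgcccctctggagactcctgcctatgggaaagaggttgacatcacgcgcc
CDC25B, chr20:3786791-3786950, plus strand: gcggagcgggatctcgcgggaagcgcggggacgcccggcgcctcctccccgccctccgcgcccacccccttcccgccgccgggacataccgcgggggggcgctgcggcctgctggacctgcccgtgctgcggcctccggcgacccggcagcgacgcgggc

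In CCNB2 the stretch holds 3 CCAAT boxes upstream of 1 TTTGAA, which ends 24 bases before the start. PLK1 has 1 CCAAT box and 1 TTTGAA at the same distance, and in CDCA8 the TTTGAA overlaps an inverted CCAAT box by 1 base. NCAPG has a TTTGAA and no CCAAT box. The stretches of MYBL2 and CDC25B hold neither element, whereas that of ECT2 holds 1 TTTGAA and 2 CCAAT boxes.

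As a group, the mitotic genes were lower in the knockout libraries. Of the 44 genes, 41 were lower, 0 were higher and 3 did not pass edgeR's quasi-likelihood test (adjusted p under 0.05), against 26.3% of all genes tested called lower, 27.2% called higher and 53.5% called in either direction. At an unadjusted p under 0.05, edgeR also called 0 of them higher, and so did DESeq2 and limma-voom after adjustment. The median log2 fold change was -0.93, that is 52.6% of the wild-type level, against 0.00 over all genes tested, and the range ran from -1.88 (MYBL2) to 0.02 (ECT2). When the test itself required a change of more than 1.5-fold, 31 of the 44 were lower and 0 were higher, against 5.47% of all genes called lower, 8.5% called higher and 14% in either direction. In 40 of the 44 genes, every knockout library lay below every wild-type library, which held for 29.1% of all genes tested. For 58.9% of all genes the groups did not overlap in either direction. The mitotic genes are well expressed, with wild-type means of 8.77 to 547 CPM. Among the 10110 genes with a wild-type mean of at least 8 CPM, 38.2% were called lower and 7.02% were called lower at 1.5-fold, and the median log2 fold change there was -0.04.

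**Figure D1:**
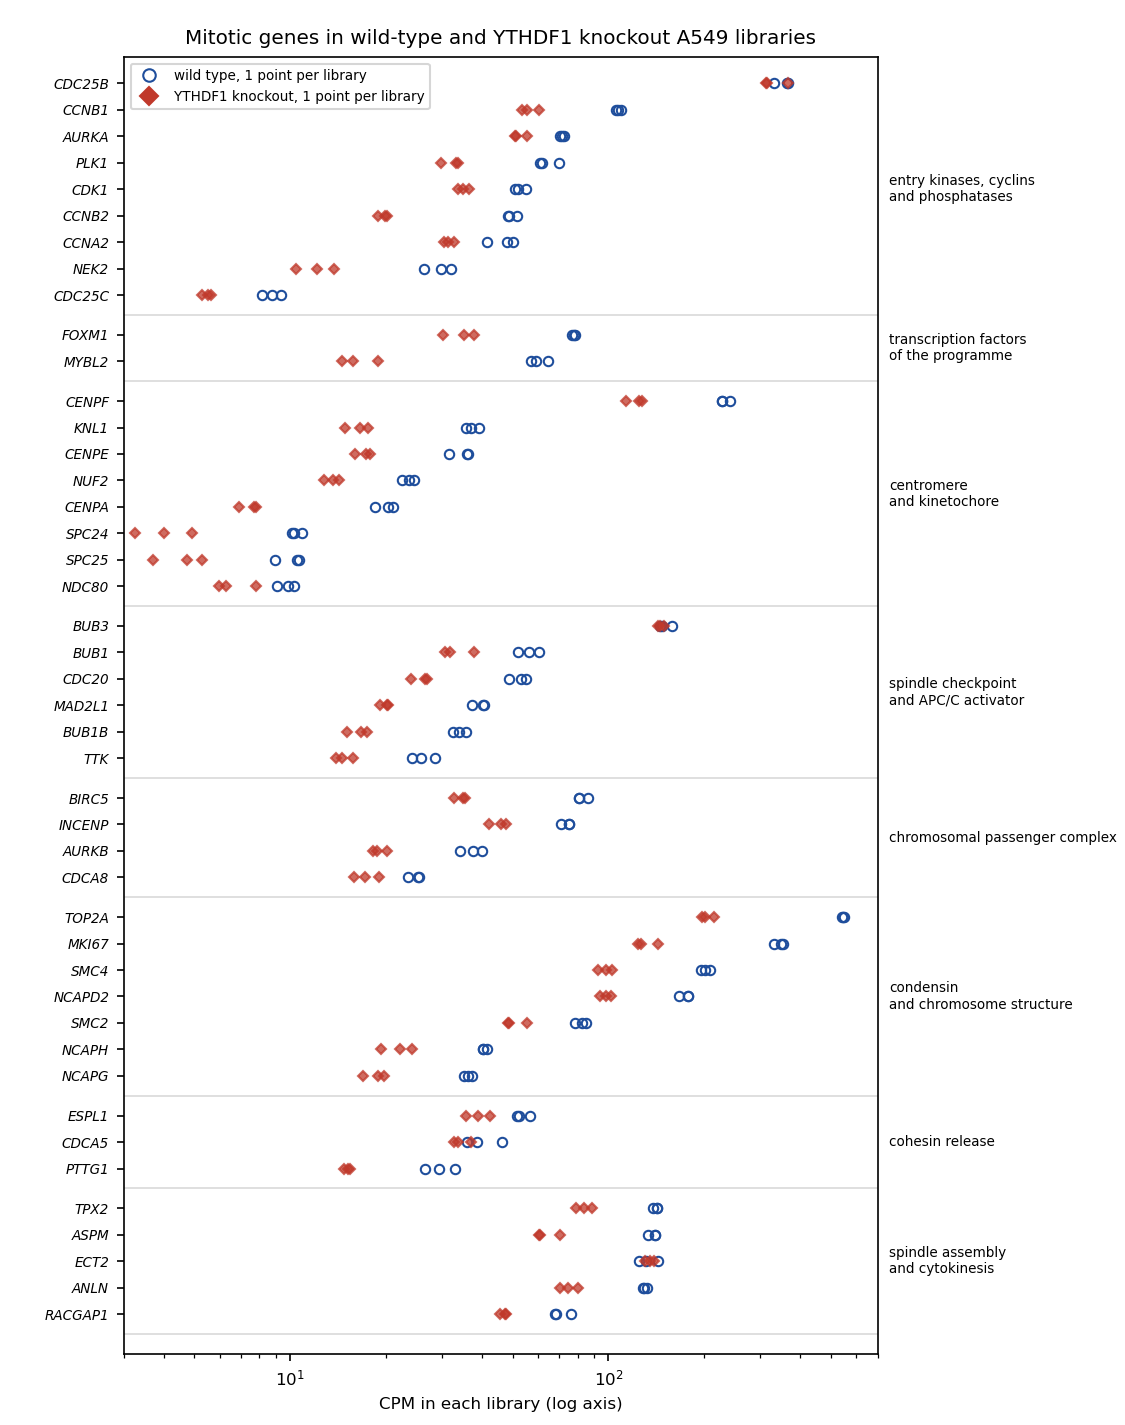
Level of each of the 44 genes in each library, in CPM on a log axis, grouped by role. Open circles are the 3 wild-type and filled diamonds the 3 knockout libraries. The groups overlap for CDC25B, BUB3, ECT2 and CDCA5, and in the other 40 rows all diamonds lie left of all circles.

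Summed over the 44 genes, the wild-type libraries held 3959, 4137 and 4011 CPM and the knockout libraries 2328, 2202 and 2388 CPM. The genes together took 0.393% to 0.409% of the counts in wild type and 0.221% to 0.242% in the knockout. Within the knockout group, replicate 3 was the highest of the 3 for 32 genes, and replicate 2 was the lowest for 29. Wild-type replicate 2 was the highest of its group for 25 genes. These shifts were small beside the difference between the groups, since the median coefficient of variation across genes was 4.75% in wild type and 6.35% in the knockout. In bulk RNA, fewer cells in mitosis and less of these RNAs per mitotic cell cannot be told apart. With the mitochondrially encoded genes removed before scaling, 41 of the genes were still called and the median was still -0.93.

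The 2 transcription factors of the programme fell more than any other role (median log2 fold change -1.53). MYBL2 (B-Myb, which joins the MuvB complex, chromosome 20 from 43667019 to 43716496) had the largest change of the 44 genes. It measured 59.4, 64.7 and 56.9 CPM in wild type and 15.7, 14.5 and 18.9 CPM in the knockout, so the knockout libraries held 27.2% of the wild-type level and the groups lay far apart. The fall was 1.88 on the log2 scale (SE 0.0793), with an adjusted p of 6.63e-20. FOXM1, a forkhead factor that is recruited to the same promoters later in the cycle (chromosome 12 from 2857681 to 2877155), measured 78.4, 76.5 and 77.97 CPM in wild type and 37.7, 30.1 and 35.2 CPM in the knockout. It fell by 1.18 (SE 0.0648, adjusted p = 8.22e-17), to 44.1% of wild type. The knockout libraries differed more among themselves than the wild-type libraries did, 34.3 ± 3.85 CPM against 77.7 ± 0.988 CPM (SD, n = 3), without reaching them. On the opposite strand, exons of ITFG2 cover 15.9% of the FOXM1 exon bases. ITFG2 was at 15.1 CPM in wild type and 12.6 CPM in the knockout, and no source used here gives the strand setting of the counting.

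Among the 9 kinases, cyclins and phosphatases of mitotic entry, 8 fell and 4 of them fell at 1.5-fold (median log2 fold change -0.68). All 3 mitotic cyclins were among them. CCNB2 (cyclin B2, chromosome 15 from 59105078 to 59125045) measured 51.8, 48.8 and 48.5 CPM in wild type and 19.8, 18.9 and 20.1 CPM in the knockout, a fall of 1.34 on the log2 scale (SE 0.0685, adjusted p = 1.16e-17). CCNB1, the major B-type partner of CDK1, measured 106, 109 and 107 CPM in wild type and 55.6, 53.5 and 60.4 CPM in the knockout and fell by 0.93 (SE 0.0529, adjusted p = 2.43e-16). CCNA2, the cyclin that acts in S phase and early mitosis, went from 41.7, 49.98 and 47.8 CPM to 32.7, 30.4 and 31.4 CPM. None of these 3 cyclins had overlapping groups, and CCNA2 kept 67.8% of its wild-type level against 39.5% for CCNB2. The fall of CCNA2 by 0.56 (SE 0.0695, adjusted p = 2.38e-08) did not pass the test at 1.5-fold.

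CDK1, the kinase that the cyclins activate, measured 51.9, 55.1 and 51.0 CPM in wild type and 33.7, 34.9 and 36.4 CPM in the knockout, and fell by 0.59 (SE 0.0622, adjusted p = 9.24e-10). PLK1, the polo kinase that acts from entry to cytokinesis, went from 61.1, 70.1 and 61.7 CPM to 33.1, 29.8 and 33.7 CPM, which is 50.2% of wild type (log2 fold change -0.996, SE 0.0659, adjusted p = 1.14e-14). NEK2, a kinase that separates the centrosomes, went from 26.2, 32.1 and 29.8 CPM to 13.8, 10.4 and 12.2 CPM and fell by 1.28 (SE 0.0957, adjusted p = 2.60e-13). In percent of wild type, NEK2 was at 41.2% and CDK1 at 66.6%. AURKA, the Aurora kinase of the spindle poles, had 1 of the smaller falls, 0.44 (SE 0.0550, adjusted p = 2.73e-08), from 71.3 ± 1.04 to 52.5 ± 2.46 CPM (SD, n = 3).

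The CDC25 phosphatases, which remove the inhibitory phosphates from CDK1, were CDC25B and CDC25C. CDC25B measured 330, 363 and 367 CPM in wild type and 366, 313 and 316 CPM in the knockout. The groups overlapped, because knockout replicate 1 lay among the wild-type libraries, and the gene did not pass the test (log2 fold change -0.09, SE 0.0502, adjusted p = 0.124, 95% interval of the fold 0.874 to 1.01). CDC25B did pass when knockout replicate 1 was left out (log2 fold change -0.17, adjusted p = 0.0028) and when wild-type replicate 1 was left out (-0.14, adjusted p = 0.0392). CDC25C had low counts, with 9.34, 8.79 and 8.17 CPM in wild type and 5.51, 5.64 and 5.28 CPM in the knockout, and fell by 0.68 (SE 0.131, adjusted p = 4.42e-05).

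All 8 centromere and kinetochore genes fell, 7 of them at 1.5-fold (median log2 fold change -1.08). CENPA, the histone H3 variant that marks the centromere (chromosome 2 from 26764289 to 26801067), measured 20.2, 21.0 and 18.4 CPM in wild type and 7.80, 6.91 and 7.71 CPM in the knockout. It fell by 1.41 (SE 0.102, adjusted p = 1.10e-13), to 37.6% of wild type. Exons of SLC35F6 on the same strand cover 6.96% of the CENPA exon bases, where the counts are uncertain. SLC35F6 was at 102 CPM in wild type and 88.8 CPM in the knockout. KNL1, the scaffold on which checkpoint proteins gather, went from 35.6, 37.0 and 39.3 CPM to 16.6, 14.9 and 17.5 CPM and fell by 1.19 (SE 0.0787, adjusted p = 1.08e-14). CENPF, a large protein of the outer kinetochore, went from 232 ± 7.40 to 122 ± 7.65 CPM (SD, n = 3), and CENPE, a kinetochore motor, from 34.5 ± 2.59 to 17.0 ± 0.950 CPM. Their falls were 0.93 (SE 0.0477, adjusted p = 1.50e-17) and 1.02 (SE 0.0794, adjusted p = 7.13e-13). CENPE encodes a kinesin and is among the genes because it was named as a kinetochore protein.

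The NDC80 complex, the rod that holds the microtubule, is built from NDC80, NUF2, SPC24 and SPC25, and all of these fell. SPC24 measured 10.1, 10.3 and 10.9 CPM in wild type and 3.25, 4.02 and 4.91 CPM in the knockout, and SPC25, its direct partner, 8.97, 10.7 and 10.5 CPM against 4.74, 3.70 and 5.28 CPM. SPC24 fell by 1.35 (SE 0.143, adjusted p = 7.80e-10) and SPC25 by 1.14 (SE 0.142, adjusted p = 2.87e-08). NUF2 went from 22.5, 24.4 and 23.6 CPM to 12.8, 13.7 and 14.2 CPM, a fall of 0.79 (SE 0.0860, adjusted p = 1.56e-09). NDC80, the partner of NUF2, measured 9.07, 9.83 and 10.3 CPM in wild type and 5.98, 6.27 and 7.79 CPM in the knockout. Its fall of 0.54 (SE 0.128, adjusted p = 0.000574) did not pass the test at 1.5-fold. SPC24, SPC25 and NDC80 had few counts, and SPC24 (0.143) and SPC25 (0.142) had the largest standard errors among the 44 genes.

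Of the 6 genes of the spindle checkpoint and its target CDC20, 5 fell, all 5 at 1.5-fold, and BUB3 did not pass the test. MAD2L1 (MAD2, which holds CDC20 inactive) measured 37.2, 40.6 and 40.5 CPM in wild type and 20.3, 19.2 and 20.2 CPM in the knockout and fell by 0.99 (SE 0.0722, adjusted p = 1.51e-13). CDC20, which activates the anaphase-promoting complex, went from 53.2, 55.2 and 48.8 CPM to 26.9, 24.0 and 26.6 CPM, a fall of 1.02 (SE 0.0686, adjusted p = 1.73e-14). BUB1B (BUBR1), part of the same inhibitory complex as MAD2, went from 34.0, 35.7 and 32.4 CPM to 16.7, 15.1 and 17.5 CPM and fell by 1.05 (SE 0.0792, adjusted p = 3.19e-13). These 3 genes stood at about the same share of wild type: 50.5%, 49.3% and 48.3%. Exons of BUB1B-PAK6, at 0 CPM in each library, cover 10.2% of the BUB1B exon bases on the same strand. The checkpoint kinases BUB1 and TTK (MPS1) fell by 0.75 (SE 0.0717, adjusted p = 9.41e-11) and 0.83 (SE 0.0864, adjusted p = 6.96e-10). BUB3, the WD-repeat protein that carries BUB1 and BUBR1 to the kinetochore (chromosome 10 from 123154277 to 123170467), measured 145, 158 and 147 CPM in wild type and 143, 145 and 149 CPM in the knockout. The groups overlapped, with a log2 fold change of -0.04 (SE 0.0460, adjusted p = 0.478) and a 95% interval of the fold from 0.911 to 1.04.

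All 4 genes of the chromosomal passenger complex, which corrects wrong attachments at the centromere and later acts at the midzone, fell, 3 of them at 1.5-fold. BIRC5 (survivin, chromosome 17 from 78214186 to 78225636) measured 80.9, 86.4 and 80.9 CPM in wild type and 35.4, 32.6 and 34.9 CPM in the knockout and fell by 1.27 (SE 0.0577, adjusted p = 4.98e-19). AURKB, the kinase of the complex, went from 37.5, 40.0 and 34.2 CPM to 18.3, 18.8 and 20.2 CPM, a fall of 0.96 (SE 0.0770, adjusted p = 1.43e-12). INCENP, its scaffold, went from 73.7 ± 2.56 to 45.1 ± 2.85 CPM (SD, n = 3), a fall of 0.71 (SE 0.0582, adjusted p = 2.55e-12). CDCA8 (borealin), which binds survivin and INCENP, kept the largest share of its wild-type level in this complex, 69.9%, with 25.3, 23.5 and 25.5 CPM against 17.1, 15.9 and 19.0 CPM (fall of 0.52, SE 0.0845, adjusted p = 3.80e-06). Subunits of the complex therefore ranged from 41.5% to 69.9% of wild type.

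All 7 genes of condensin and chromosome structure fell, 6 of them at 1.5-fold. TOP2A, topoisomerase II alpha (chromosome 17 from 40388516 to 40417950), measured 546, 543 and 551 CPM in wild type and 201, 197 and 214 CPM in the knockout and fell by 1.42 (SE 0.0421, adjusted p = 3.15e-24). MKI67, the Ki-67 protein that coats mitotic chromosomes, went from 330, 352 and 349 CPM to 127, 124 and 143 CPM, a fall of 1.39 (SE 0.0486, adjusted p = 3.26e-22). In percent of wild type, TOP2A was at 37.4% and MKI67 at 38.1%. The 5 subunits of condensin I were at 48.5% to 62.0%. SMC4 measured 195, 209 and 201 CPM in wild type and 98.0, 92.7 and 103 CPM in the knockout (fall of 1.04, SE 0.0477, adjusted p = 5.91e-19), and its partner SMC2, the other ATPase of the ring, 82.8, 84.8 and 78.7 CPM against 48.5, 48.3 and 55.6 CPM (fall of 0.69, SE 0.0585, adjusted p = 5.58e-12). The subunits that bind the SMC ring fell by 0.96 (NCAPG), 0.90 (NCAPH) and 0.83 (NCAPD2), each with an adjusted p of 4.91e-12 or less. SMC2 lay just outside the call at 1.5-fold, with an adjusted p of 0.0748, and INCENP just inside, with 0.0389. Exons on the opposite strand cover 33.1% of the exon bases of NCAPG (LCORL, 17.0 CPM in wild type and 13.8 CPM in the knockout) and 25.6% of those of SMC4 (IFT80, 27.2 and 13.9 CPM, and TRIM59, 17.6 and 11.5 CPM), so the values of these genes are uncertain if the counting ignored strand.

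All 3 genes of cohesin release fell, 1 of them at 1.5-fold, with the median nearest to 0 of all roles, -0.46. PTTG1 (securin, the inhibitor that is destroyed at anaphase) measured 29.3, 32.9 and 26.6 CPM in wild type and 14.8, 15.2 and 15.4 CPM in the knockout, and fell by 0.97 (SE 0.0849, adjusted p = 1.33e-11). ESPL1 (separase, the protease that securin restrains) went from 56.5, 52.4 and 51.6 CPM to 38.8, 35.7 and 42.4 CPM, a fall of 0.46 (SE 0.0657, adjusted p = 3.96e-07). Securin RNA was thus at 51.2% and separase RNA at 72.8% of wild type. CDCA5 (sororin, which protects cohesin until mitosis) measured 35.95, 46.4 and 38.6 CPM in wild type and 32.6, 33.7 and 36.9 CPM in the knockout. The groups overlapped at 1 library on each side. Its fall of 0.22 (SE 0.0769, adjusted p = 0.0146) was lost without wild-type replicate 2 (adjusted p = 0.202), without knockout replicate 1 (0.0703) or without knockout replicate 2 (0.0549).

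Of the 5 genes of spindle assembly and cytokinesis, 4 fell, 3 of them at 1.5-fold. ASPM, which organises spindle poles, measured 140, 133 and 140 CPM in wild type and 60.3, 60.8 and 70.3 CPM in the knockout and fell by 1.11 (SE 0.0545, adjusted p = 4.14e-18). TPX2, which activates Aurora A on the spindle, went from 142, 142 and 138 CPM to 89.0, 79.1 and 84.0 CPM, a fall of 0.75 (SE 0.0491, adjusted p = 9.93e-15). ANLN (anillin, of the contractile ring) fell by 0.79 (SE 0.0508, adjusted p = 5.48e-15). The centralspindlin subunit RACGAP1 and the exchange factor ECT2, its partner at the midzone, are both needed to switch on RhoA at the division plane. RACGAP1 went from 67.9, 76.3 and 68.2 CPM to 45.6, 47.2 and 47.7 CPM, a fall of 0.59 (SE 0.0580, adjusted p = 1.46e-10). ECT2 (chromosome 3 from 172750682 to 172821474) measured 131, 143 and 124 CPM in wild type and 139, 130 and 135 CPM in the knockout, with overlapping groups, a log2 fold change of 0.02 (SE 0.0499, adjusted p = 0.745) and a 95% interval of the fold from 0.946 to 1.09.

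**Figure D2:**
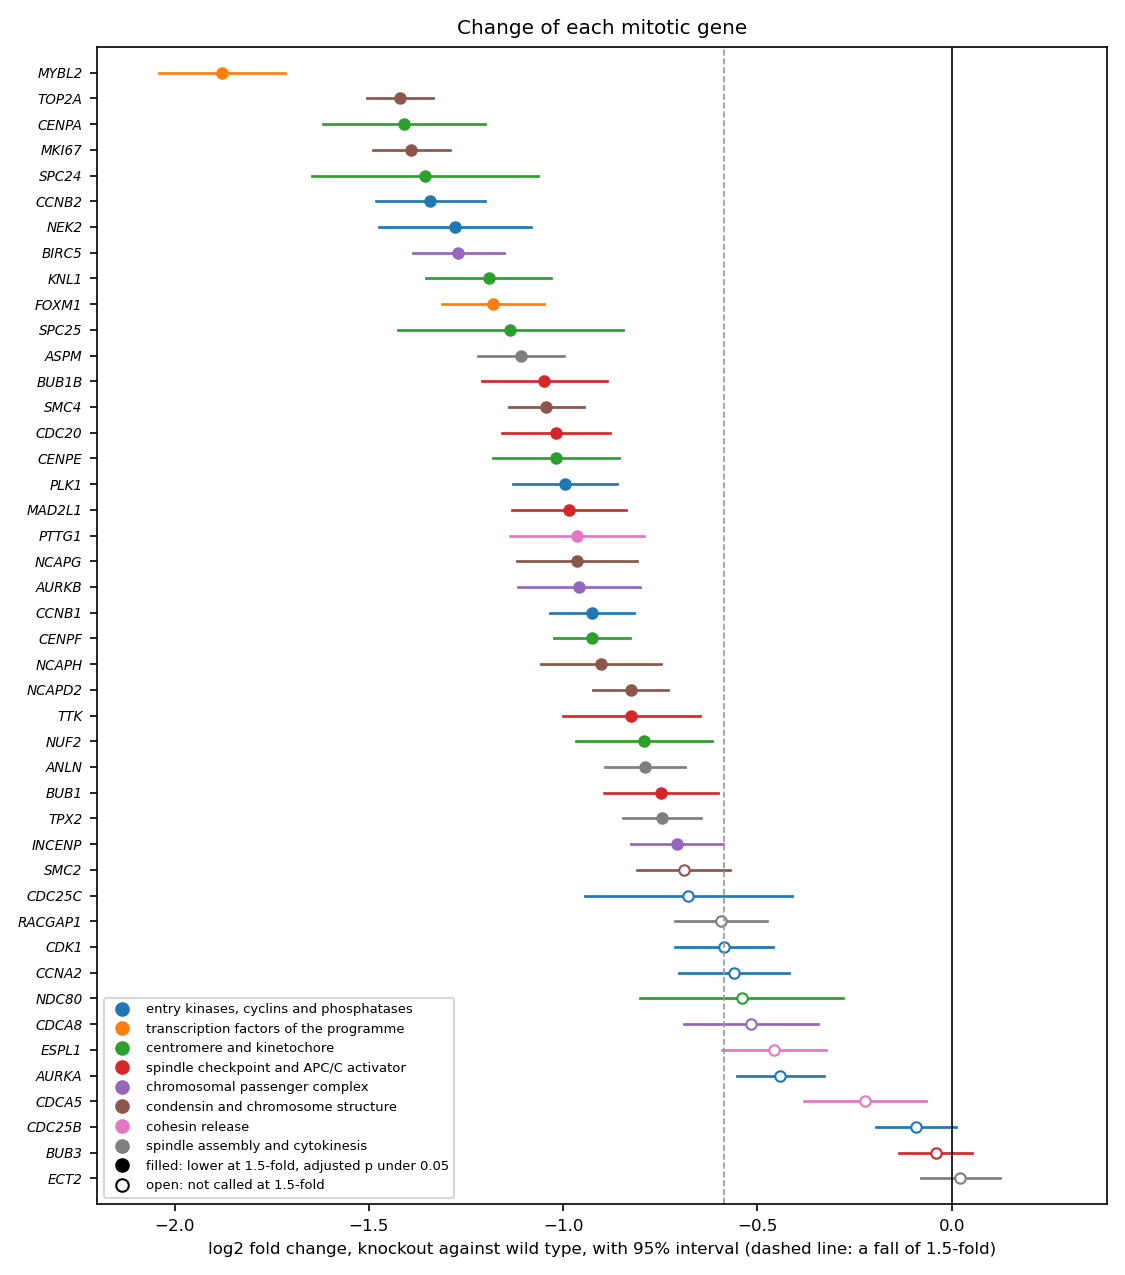
Log2 fold change of each of the 44 genes, knockout against wild type, with its 95% interval, coloured by role. Filled points were called lower at 1.5-fold (31 genes) and open points were not (13 genes). The intervals of CDC25B, BUB3 and ECT2 include 0, and MYBL2 stands at -1.88.

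Partners and paralogs were also set against each other within each library, which removes the scaling between libraries. Of 7 pairs, 4 paralog pairs and 3 dimers, the log2 ratio of the partners had no overlap between the groups in 6. Among single genes 58.9% had none, and the share over other pairs of genes was not computed, so this count is a description. CCNB1 over CCNB2 was 1.11 ± 0.0740 in wild type and 1.53 ± 0.0567 in the knockout (SD, n = 3), a difference of 0.41. AURKA over AURKB was 0.94 ± 0.127 and 1.46 ± 0.0252, and SMC2 over SMC4 was -1.30 ± 0.0598 and -0.95 ± 0.0658. The other 3 pairs without overlap were CDC25B over CDC25C (difference 0.58), BUB1 over BUB1B (0.30) and NDC80 over NUF2 (0.24). SPC24 over SPC25 differed by -0.23, with overlapping groups (p = 0.4, exact permutation test, two-sided). With 3 libraries against 3 the exact permutation test cannot go below p = 0.1, which the 6 pairs reached, and the Benjamini-Hochberg adjusted value over the 7 pairs was 0.117. No pair could therefore pass this permutation test at 0.05.

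Per kilobase of exon, TOP2A (84.9 ± 0.588 CPM per kb, SD, n = 3) and CDC25B (81.9 ± 4.63) had the highest wild-type levels. Their ranges over the wild-type libraries overlapped, while within each of these libraries TOP2A was the higher. CCNB1 (42.0 ± 0.770) and TPX2 (39.1 ± 0.643) came next. The lowest levels per kilobase were those of CDC25C (2.63 ± 0.175) and NDC80 (2.71 ± 0.174), which did not differ beyond their spread. In the knockout libraries TOP2A stood at 31.7 ± 1.39 CPM per kb and CDC25B at 76.9 ± 6.83, so that CDC25B was the highest of the 44 genes there.

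Other genes of mitosis, in 6 lists of 95 genes that do not include the 44, gave mixed results. All 95 were tested, and 58 were lower, 10 higher and 27 not called, and their median log2 fold change was -0.31. Over all genes tested, 26.3% were lower and 27.2% higher, which is the reference for the count of each list below. Among genes with a wild-type mean of at least 8 CPM, 38.2% were lower. At 1.5-fold, 15 of the 95 were lower and 3 higher, against 5.47% and 8.5% of all genes tested. The list nearest to the 44 genes held other spindle, centrosome and cytokinesis genes, with 12 of 13 lower and a median of -0.76. In it, CIT (citron kinase) went from 71.8, 72.7 and 74.2 CPM to 24.9, 28.4 and 28.5 CPM (fall of 1.42, adjusted p = 2.16e-19). CEP55, which directs abscission, fell by 1.26 (adjusted p = 2.52e-17), and DLGAP5, a spindle microtubule protein, fell by 0.91 (adjusted p = 1.63e-13). PRC1 and NUSAP1, named here outside the rule because of their annotation, share 57.6% and 62.2% of their exon bases with another gene on the same strand, so that their counts are uncertain.

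Among 24 other kinetochore and centromere genes, 15 were lower and 2 higher (median -0.37). SKA3 fell by 0.90, CENPI by 0.86 and CENPH by 0.67, with adjusted p of 3.72e-07, 8.94e-09 and 4.24e-07, all of them proteins that link or stabilise the kinetochore. The genes that rose were CENPQ, by 0.43 (adjusted p = 0.00178), and HJURP, the chaperone that loads CENP-A. HJURP went from 116, 127 and 123 CPM to 157, 133 and 141 CPM, a rise of 0.24 (SE 0.0524, adjusted p = 0.000236) with no overlap between the groups, while CENPA, its cargo, fell by 1.41. Among 10 other checkpoint genes, 7 were lower and 2 higher. KNTC1 and ZWILCH, subunits of the RZZ complex, fell by 0.98 (adjusted p = 6.32e-16) and 0.91 (adjusted p = 3.21e-13). SPDL1 (spindly), the dynein adaptor that RZZ recruits, went the other way, from 71.6, 72.9 and 68.9 CPM to 106, 115 and 121 CPM, a rise of 0.68 (SE 0.0526, adjusted p = 5.92e-13). MAD2L1BP, which helps to take MAD2 off CDC20, rose by 0.83 (SE 0.0869, adjusted p = 6.80e-10), from 12.6, 12.5 and 12.8 CPM to 22.9, 23.2 and 21.4 CPM.

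Of 15 genes of cohesin and condensin II, 10 were lower and 0 higher by edgeR, also 0 higher at an unadjusted p under 0.05 (median -0.19). NCAPG2, a condensin II subunit, fell by 1.15 (adjusted p = 2.84e-17), ESCO2, a cohesin acetyltransferase of S phase, by 0.84 (adjusted p = 5.08e-08) and PDS5A, a cohesin regulator, by 0.31 (adjusted p = 7.11e-07). Of 18 genes of the anaphase-promoting complex and its partners, 9 were lower and 2 higher (median -0.13). The shares over all genes tested were 26.3% lower and 27.2% higher. ANAPC16, ANAPC5 and ANAPC1, subunits of the complex, fell by 0.74, 0.48 and 0.52, and CDC27 and ANAPC10 rose by 0.11 (adjusted p = 0.0285) and 0.63 (adjusted p = 0.0423). ANAPC10 rested on low levels, 1.58, 2.49 and 1.25 CPM in wild type and 2.54, 3.43 and 2.09 CPM in the knockout, and its groups overlapped.

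The list of other entry regulators and the MuvB core had 5 of 15 genes lower and 4 higher (median -0.18), near the shares of all genes tested, 26.3% lower and 27.2% higher. MASTL (Greatwall), the kinase that restrains the phosphatase opposing CDK1, measured 33.0, 35.7 and 33.3 CPM in wild type and 61.9, 55.7 and 67.5 CPM in the knockout. It rose by 0.86 (SE 0.0668, adjusted p = 5.86e-13), while ENSA, a substrate through which it acts, fell by 0.45 (adjusted p = 5.37e-09). PKMYT1, a kinase that inhibits CDK1, fell by 0.91 (adjusted p = 8.35e-10). CDK7 and MNAT1, subunits of the kinase that activates CDK1, rose by 0.41 (adjusted p = 3.42e-06) and 0.47 (adjusted p = 3.34e-05), while CCNH, its cyclin, fell by 0.27 (adjusted p = 0.00712). CCNH is named outside the rule, after its values were seen. LIN52, the MuvB subunit whose phosphorylation sets the partner of the complex, rose by 0.84 (SE 0.113, adjusted p = 1.07e-07), from 8.47, 6.94 and 8.97 CPM to 13.4, 14.6 and 15.99 CPM. The other 4 MuvB genes listed, LIN9, LIN37, LIN54 and RBBP4, did not pass the test, with log2 fold changes from -0.19 to 0.16.

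**Figure D3:**
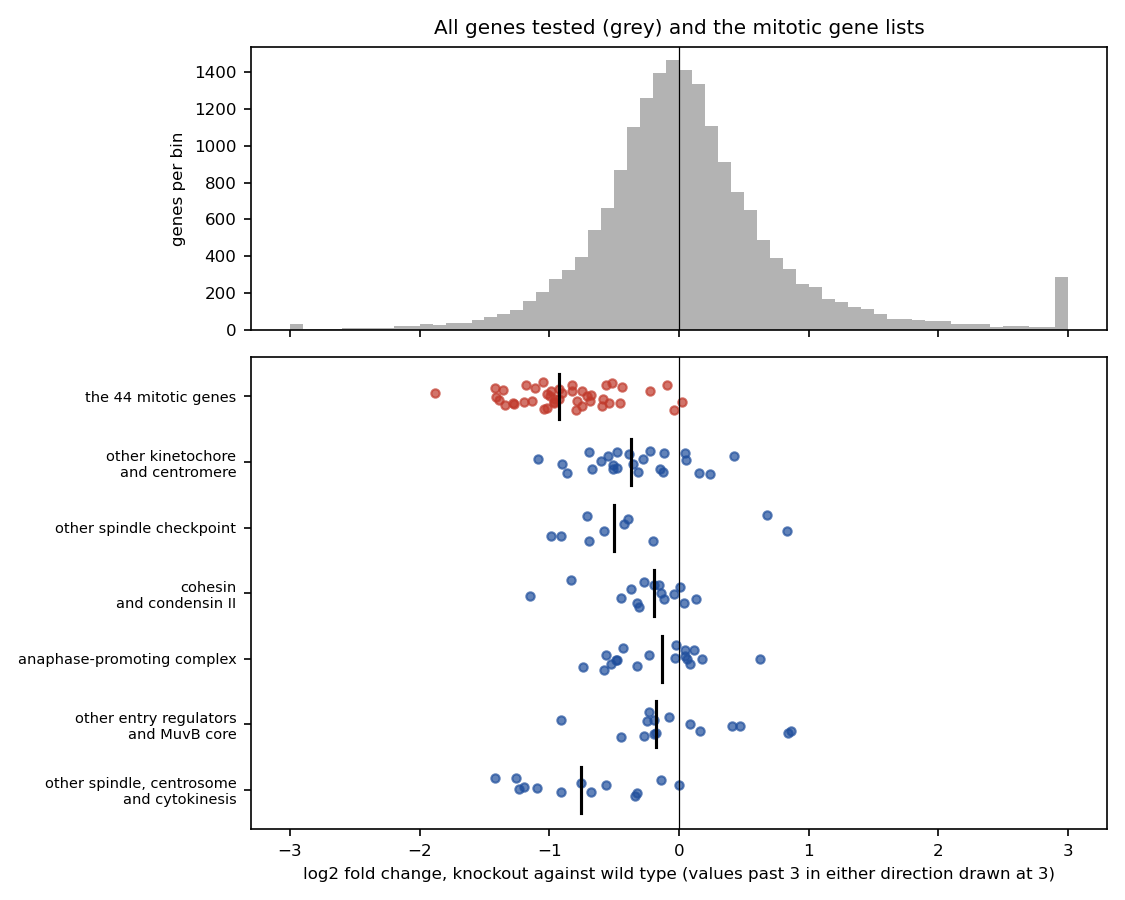
Log2 fold changes, knockout against wild type. The upper panel is a histogram of all 18505 genes tested, and the lower panel has 1 point per gene for the 44 mitotic genes and for 6 lists of other mitosis genes, with a black line at each median. The 44 genes have a median of -0.93 and the other lists medians from -0.76 to -0.13.

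The promoter table of RefSeq (GRCh38.p14) held 36 of the 44 genes, with windows from 250 bases before to 50 after the start. AURKA, FOXM1, KNL1, BUB3, TTK, BIRC5, TPX2 and RACGAP1 were not matched. A CHR element in either form was present in 25 of these 36 windows (69.4%), against 16.6% of the 27305 windows of all genes and 11.3% of the 11189 windows of protein-coding genes tested here. The TTTGAA form was in 23 of 36 windows (63.9%, against 15.4% of all windows and 9.85% of those of coding genes tested) and the TTCGAA form in 3 (8.33%, against 1.45% and 1.72%). A CCAAT box was in 24 windows (66.7%, against 35.7% and 36.2% in the same order), and 17 windows (47.2%) held 2 or more, against 11.3% and 13.2%. A CHR element together with a CCAAT box was in 17 windows (47.2%, against 6.58% and 4.76%). For E2F the letters TTCCCGC were in 6 windows (16.7%, against 6.56% and 10.1%) and TTGGCGC in 3 (8.33%, against 3.12% and 5.0%). All letters were searched on both strands. Other forms of the CHR element, the NF-Y box or the E2F site were not searched, so a window without a match can still hold such a site. These are matches of letters in windows of genes chosen for mitotic roles, and not measured binding.

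Split by the searched letters in the first listed window of each gene, the genes had similar medians. Genes counted as without an element can hold other forms of it, so the split cannot show whether the element matters. Genes with a CHR element had a median log2 fold change of -0.93 (24 of 25 lower), and those without one -0.96 (10 of 11 lower). With a CCAAT box the median was -0.96 (23 of 24 lower), and without one -0.79 (11 of 12 lower). The first listed windows of CDC25B, CDC25C, CENPE and MYBL2 held neither element in the forms searched. These 4 genes ranged from a log2 fold change of -0.09 (CDC25B) to -1.88 (MYBL2). Counting every listed window, 27 genes held a CHR element and 26 a CCAAT box, against 25 and 24 in the first listed windows. The split therefore depends on the window used, and it covers only the letters searched. ECT2, the gene nearest to no change, holds 2 CHR elements and 3 CCAAT boxes.

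**Figure D4:**
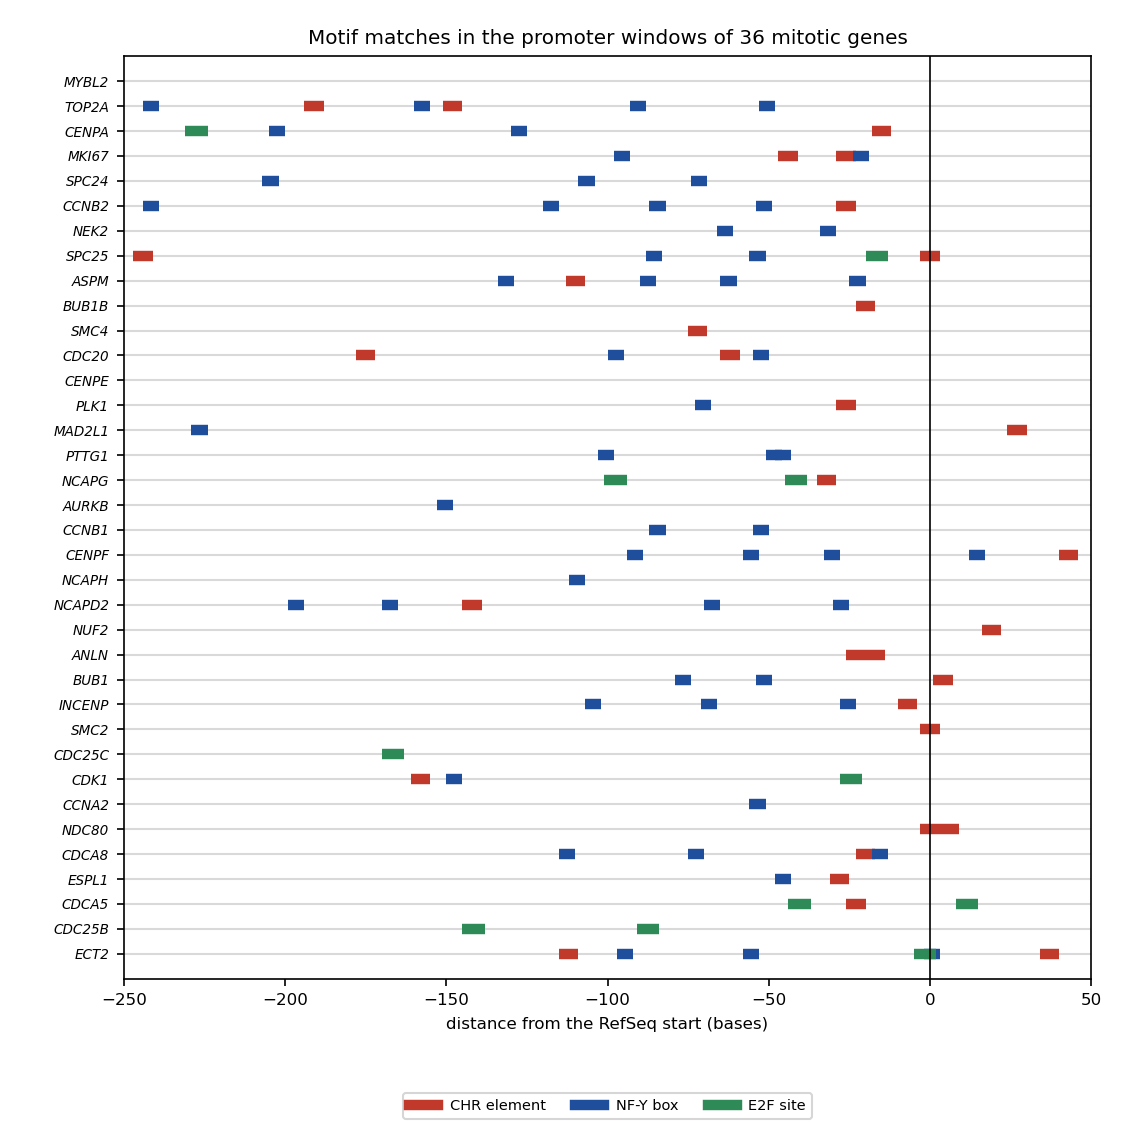
Positions of CHR elements, NF-Y boxes and E2F sites (bars) in the promoter windows of 36 genes, against the distance in bases from the RefSeq start, with the largest fall in expression at the top. Bars mark only the letters given in the text, and other forms of these sites were not searched. MYBL2 and CENPE have no bar, so their windows held none of these letters but can hold other forms. TOP2A near the top and ECT2 at the bottom both have CHR elements and NF-Y boxes.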

How the data were processed

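RNA-seq was made from A549 cells, 3 wild-type and 3 YTHDF1 knockout libraries, from total RNA with a stranded Illumina kit, per the labels' protocols. The authors deposited 1 table of raw counts, whole numbers per Ensembl gene and library. Per the submitters' processing notes, Trim Galore 0.6.6, STAR 2.7.0d, featureCounts 2.0.1, edgeR 3.32.1 and GRCh38 were used. No source used here gives the annotation, the strand setting or the handling of multi-mapping reads. The 17 pseudogenes named after any of the 44 genes had group means of at most 0.724 CPM. Because the handling of multi-mapping reads is unknown, these low values cannot show whether reads of the 44 genes were shared or dropped.

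Counts were tested with edgeR 4.0.16 in R 4.3.3: filterByExpr by genotype (18505 of 60617 genes), TMM factors, the two-sided quasi-likelihood test on genotype alone, and Benjamini-Hochberg adjustment over all genes tested, at 0.05. The test at 1.5-fold was edgeR's glmTreat on the same fit. The common biological coefficient of variation was 0.0617. CPM values use the TMM factors, and 3 counts correspond to 0.0735 to 0.111 CPM. Such floors cover counting error only. Each SE was computed from the log2 fold change and its F value. Log2 fold changes are knockout against wild type.

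Symbols came from a symbol table for 42000 identifiers and from GENCODE release 29 for 1245 more, and 17372 had none. Gene coordinates and exons are those of GENCODE 29 on GRCh38, promoters those of RefSeq on GRCh38.p14, where 8 of the matched genes had several windows and the first listed was used. The genes, the lists and the rule for named genes (all 44, and from each other list the 3 with the smallest adjusted p and every gene called against the direction of most of the list) were chosen with earlier results of these data known.

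The fit was tested on simulated counts with known changes and a common dispersion for all genes. It called 48 of 65 genes changed 1.5-fold, 54 of 60 changed 2-fold and 63 of 63 changed 4-fold. Of 18332 unchanged genes it called 5. The test at 1.5-fold called 35 of the 60 genes changed 2-fold. Libraries of a group differed by more than sampling noise (chi-square per degree of freedom 4.40 to 6.55) and were kept as 6 samples. Alternatives were RLE factors, library size only, no mitochondrially encoded genes, DESeq2 1.42.0, limma-voom (limma 3.58.1), no filter, at least 1 CPM in 3 libraries, the replicate number as a block, each library left out in turn, and a threshold of 0.01.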

Additional observations from a re-analysis of the deposited data

How the results depend on the processing

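The counts of called genes among the 44 kept their direction and stayed within 1.5 times of the reported values under every alternative run. Of the 44 genes, 40 to 42 were called, 0 of them higher, and 27 to 32 at 1.5-fold, with 27 under DESeq2 and under limma-voom. Leaving out 1 library at a time gave 40 to 42 called genes, 28 to 32 at 1.5-fold and medians from -0.98 to -0.88 on the log2 scale. At an adjusted p under 0.05 without a minimum fold, the single genes whose call changed were CDCA5, also lost at a threshold of 0.01, and CDC25B, both given above, and 0 genes reversed. Scaling by library size alone moved the median of all genes to 0.03 and that of the 44 genes to -0.90.

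The replicate numbers did not pair the libraries, since deviations of libraries with the same number correlated at -0.026, -0.014 and 0.0079 across genes. With the replicate block, 41 genes were called and 31 at 1.5-fold, with a median of -0.93, and 9703 of all genes were called in place of 9893. Depth limits SPC24, SPC25, NDC80 and CDC25C most, whose knockout means were 4.06, 4.57, 6.68 and 5.48 CPM.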

Other observations

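Sequence features of the mature transcripts were read from the longest coding transcript of each of the 44 genes in GENCODE 29. Their median length was 3358 bases, against 3415 over 13893 protein-coding genes tested, and their median GC content was 43.5%, against 49.1%. The letters GGACT, a frequent context of methylated adenosine in mRNA, occurred at a median of 0.817 per kilobase, against 0.936. Among the 44, CENPA had the highest density, 4.13 per kilobase, and ANLN the lowest, 0.209. Across the 44 genes the log2 fold change was only weakly related to the density of GGACT (Pearson's r = -0.20, Spearman's rho = -0.16), to GC content (r = -0.06, rho = -0.03) or to the wild-type level (r = 0.09, rho = 0.08). These correlations are across genes of the same 6 libraries, which are not independent replicates, and methylation was not measured.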
